A study of Mus musculus with 16 samples.

Results

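The genes described here are Pdgfrb, Fbln1, Sparc, Twist2, Acta2, Col1a1, Col1a2 and Col3a1, 8 markers by which fibroblasts, and the feeder fibroblasts used to culture mouse embryonic stem cells (ESCs), are commonly recognised. In each of 16 ATAC-seq libraries the 50000 distinct peaks with the highest −log10 p were kept. Kept peaks were taken whose summit had, as the nearest protein-coding transcription start site (TSS) within 100 kb, a TSS of one of these genes (GENCODE M21, mm10). This gave 527 kept peaks, 28 to 38 per library. They fell into 60 regions held by at least 2 libraries, out of 69099 such regions assigned to 17452 genes, and into 11 further regions that the summits of 1 library alone defined. Sparc had 12 of the 60 regions, Col1a1 11, Fbln1 9, Col1a2 9, Twist2 8, Pdgfrb 6, Acta2 3 and Col3a1 2. A region was called open in a library when a kept peak overlapped it by at least 1 bp, and closed otherwise. The genes were picked after earlier calls on these same libraries had pointed to fibroblast genes, so all values below are a description and none carries a test. The peaks nearest to the cut-off were 1 at rank 49772, upstream of Col1a2 in WT day 2 replicate 1 with a fold enrichment of 6.80, and 1 at rank 50107, upstream of Twist2 in WT day 3 replicate 1 with a fold enrichment of 6.54. The region farthest from its TSS lay 96865 bp upstream of Col1a2.

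ATAC-seq marks DNA that a transposase can enter, and the omni-ATAC form of the assay was used on ESCs that were differentiating into anterior neural progenitor cells in N2B27 medium with bFGF. All lines are of the B6129S6F1 Tet1 tm1Koh strain background, where tm1Koh is the knockout allele and WT cells are Tet1+/+. They form 8 groups of 2 libraries, with a different line for each library of a group. Wild type (WT, lines WT70 and WT72), catalytically dead Tet1 MUT (CM59 and CM69) and Tet1 KO (KO1 and KO15) cells were collected at day 2 and again at day 3. WT cells of the lines WT7 and WT34 received the GSK3 inhibitor CHIR99021 (CHIR, 3 µM), which activates Wnt signalling, from day 2 and were sampled on day 3, and the pair of KO lines received the Wnt inhibitor XAV939 (XAV, 5 µM) in the same way. The MUT lines are clones made from WT7. The CHIR lines differ from the untreated WT lines, so line and treatment cannot be told apart, and the labels give no group with vehicle alone. The ESCs had been kept on fibroblast feeders and were depleted of them before they were plated. The labels and methods give no count of feeder cells that remained. The lists of replicate 2 of the day 2 groups are marked as merged in their names.

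Each library's list had between 161449 and 276451 peaks, and the −log10 p at rank 50000 ran from 6.84 (KO day 3 replicate 2) to 21.8 (KO day 2 replicate 1). Read depth is unknown. In bulk libraries, fewer cells with an open region and a weaker opening in every cell cannot be told apart.

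Fibroblasts build and remodel the extracellular matrix. They secrete the fibrillar collagens, type I from Col1a1 and Col1a2 and type III from Col3a1, and matrix glycoproteins such as fibulin-1 (Fbln1) and osteonectin (Sparc). They respond to platelet-derived growth factor through the receptor PDGFRβ (Pdgfrb), and once activated they make smooth muscle α-actin (Acta2), while TWIST2 is a basic helix-loop-helix factor of mesenchyme. The same genes are used by mesoderm and its derivatives, and Sparc is also made abundantly by parietal endoderm.

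The 60 regions were open less often than regions of other genes, and fewer of them were open everywhere. Of the 60, 10 (16.7%) were open in all 16 libraries, against 36.9% of all gene-assigned regions, and 11 (18.3%) were open in exactly 2 libraries, against 13.2%. Regions within 3 kb of a TSS, called promoter regions here, made up 12 (20.0%) of the 60 and 34.6% of all regions. Of all 60, promoter regions included, 24 had their midpoint in an intron, 1 in an exon, 3 in an untranslated exon part and 32 outside the gene. The open share was 55.0% ± 4.71 (SD, n = 2) in WT, 51.7% ± 2.36 in MUT and 50.0% ± 2.36 in KO cells on day 2. On day 3 it was 60.0% ± 4.71 in WT, 58.3% ± 2.36 in MUT and 50.0% ± 2.36 in KO cells, 60.8% ± 1.18 with CHIR and 55.8% ± 3.54 in KO cells with XAV. The group means over all gene-assigned regions stayed between 64.1% and 66.9%.

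**Figure D1:**
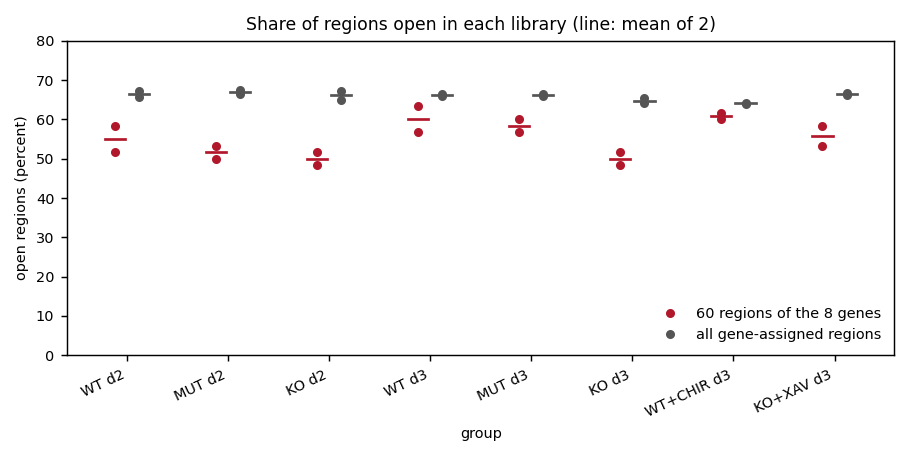
Share of regions open in each library, in percent, by group; points are libraries, short lines the mean of 2. The 60 regions of the 8 genes (red) sit below all gene-assigned regions (grey) in each of the 16 libraries, and the 2 KO day 3 libraries, at 48.3% and 51.7%, sit below both WT day 3 libraries, at 56.7% and 63.3%. Over all regions the KO day 3 libraries also sit below the WT ones, by −1.41 points in the mean. Promoter regions make up 20.0% of the red and 34.6% of the grey set.

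The name fibroblast marker was checked against the promoters. Fbln1, Sparc, Col1a1 and Col1a2 had an open promoter region in all 16 libraries, Twist2 in 13, Pdgfrb in 10, Acta2 in 2 (those with CHIR) and Col3a1 in none, among regions held by at least 2 libraries. For Col1a1 and Acta2 this was an intron region, 1.0 and 1.6 kb downstream of a TSS. Besides Col3a1, 7 of 24 other fibroblast genes had no open promoter region assigned to them in any library, whereas 15 of the 24 had one open in all 16. The 7 were Col5a2, Col6a3, Lum, Postn, Fap, S100a4 and Bgn, of which Lum, S100a4 and Bgn had no region at all. In comparison, 8 of 8 epiblast and pluripotency genes and 9 of 10 housekeeping genes had a promoter region open in all 16. So did 8 of 10 contractile, 7 of 12 mesoderm, 7 of 12 parietal and visceral endoderm and 4 of 8 neural progenitor genes. A region counts only for the gene with the nearest TSS, so a promoter assigned to a neighbouring gene is missed in these counts. Sdha in the housekeeping list and Col4a1 in the endoderm list likewise had none. A gene without an assigned region is thus not shown to have a closed promoter.

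A closed region was seldom one without any signal. Of 960 pairs of a region and a library, 530 were open and 430 closed, and in 318 (74.0%) of the closed pairs the library's list still held a peak there, ranked past 50000. In 112 pairs (26.0%) the list held none. Libraries of a group disagreed on 8 to 12 of the 60 regions. An exact permutation test of 2 libraries against 2 cannot reach 0.05, so the counts below stand without a p-value. A region counted as lost if both libraries of the reference group had it open and neither library of the group named first did, and as gained in the reverse case. Over the 9 comparisons made, 36 of the 60 regions (60.0%) were lost or gained at least once, in 37 losses and 32 gains, where 38.0% of all gene-assigned regions were.

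On day 3, Tet1 KO cells lacked the open Pdgfrb promoter and regions near Pdgfrb, Col1a1, Col1a2 and Col3a1 that WT cells had. Of 60 regions, 6 (10.0%) were lost in KO against WT cells, where 3.98% of all gene-assigned regions were, and 3 (5.0%) were gained, where 3.53% were. The gained regions lay near Pdgfrb, Sparc and Acta2. The open share differed by −10.0 percentage points (KO minus WT), and the KO and WT libraries did not overlap. Over all gene-assigned regions it differed by −1.41 points, also without overlap. In 3 of the 12 closed pairs behind the losses (25.0%) the KO list held no peak, and over all regions lost this share was 11.1%. With 30000 kept peaks per library the difference turned to 7.58 points, and none of the 33 regions then left was lost. Of the 6 lost regions, 2 were still called with 75000 kept peaks. Among the regions rebuilt with 75000, 5 of 89 (5.62%) were lost, where 4.2% of all regions were. KO day 3 replicate 2 had the lowest −log10 p at rank 50000 of all libraries, and the part of this in the losses was not tested. On day 3 the MUT lines differed from WT at fewer regions. The Pdgfrb promoter, a region in Fbln1 and a region past Col3a1 were lost, 3 of 60 (5.0%, against 1.87% of all regions), and a region upstream of Col1a1 was gained, 1 of 60 (1.67%, against 1.82%). The MUT open share was within the spread of WT, at −1.67 points, or 1.67 points without WT day 3 replicate 2.

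With CHIR, distal and intronic regions of 5 of the 8 genes (Pdgfrb, Fbln1, Sparc, Acta2 and Col1a2) were open that were closed in untreated WT cells. Of 60 regions, 9 (15.0%) were gained against WT on day 3, where 9.94% of all regions were, and 6 (10.0%) were lost, where 8.32% were. The losses lay near Pdgfrb, Col1a1, Col1a2 and Col3a1. In 13 of the 18 closed pairs behind the gains (72.2%) the WT list held no peak at all, and over all regions gained with CHIR this share was 52.1%. Of the 60 regions, 7 (11.7%) were open in both CHIR libraries and in no other library, where 6.05% of all regions were. No other group had more than 1 such region. With 30000 kept peaks 5 of the 9 gained regions were still called and with 75000 8 were. Among the regions rebuilt from those peaks, 9 of 33 (27.3%) were gained with 30000, where 9.11% of all regions were, and 18 of 89 (20.2%) with 75000, where 10.0% were. The open share differed by 0.833 points, as regions that differed in 1 library of a pair count in it too. The difference was −2.50 points without WT day 3 replicate 1, 24.2 with 30000 kept peaks, 7.87 with 75000 and 8.21 with all peaks of a −log10 q of at least 2. Regions of mesoderm and pluripotency genes differed in the same libraries. Of 103 regions of 12 mesoderm genes 38 (36.9%) were gained with CHIR and their open share was 71.8% ± 4.12 against 47.1% ± 0.687 in WT, while that of 64 regions of 8 epiblast and pluripotency genes was 52.3% ± 3.31 against 68.8% ± 4.42. Their part in the gains near the 8 genes was not tested.

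**Figure D2:**
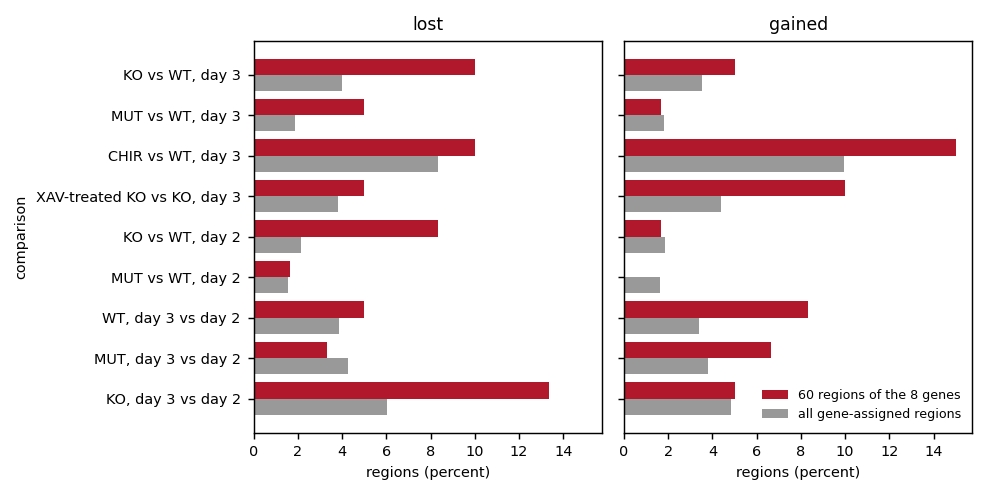
Percent of regions lost (left) and gained (right) in each of the 9 comparisons, for the 60 regions of the 8 genes (red) and all gene-assigned regions (grey). The longest red bar is the 15.0% gained with CHIR, beside 9.94% of all regions. Comparisons in which a group recurs share its libraries.

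XAV-treated KO cells had open regions in Pdgfrb and Fbln1 and past Col1a2 and Col3a1 that untreated KO cells on day 3 lacked. Of 60 regions, 6 (10.0%) were gained, where 4.39% of all regions were, and 3 (5.0%) were lost, near Twist2, Acta2 and Col1a1, where 3.82% were. The open share was 5.83 points higher than in untreated KO cells, and −10.6 points with 30000 kept peaks. None of the regions was then gained, where 4.15% of all regions were. None of the 6 gained regions was called again with 75000 kept peaks or with a −log10 q of at least 2 either. On day 2, KO cells lacked 5 regions of Sparc, Twist2 and Col1a1 (8.33%, against 2.13% of all regions) and had gained 1 in Fbln1 (1.67%, against 1.85%). MUT cells on day 2 had lost 1 region, upstream of Twist2 (1.67%, against 1.56%), and gained none, where 1.63% of all regions were gained.

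From day 2 to day 3, each genotype gained a Twist2 region and otherwise different regions. WT cells gained 5 regions (8.33%, against 3.38% of all regions), near Fbln1, Twist2, Col1a1 and Col3a1, and lost 3 (5.0%, against 3.86%), near Sparc and Twist2. With all peaks of a −log10 q of at least 2, WT cells gained 2 (1.49%, against 1.35% of all regions) and lost 7 (5.22%, against 7.05%). The difference in open share then went from 5.0 to −10.4 points. MUT cells gained 4 (6.67%, against 3.79%), 1 each near Fbln1, Twist2, Col1a1 and Col1a2, and lost 2 (3.33%, against 4.28%), the Pdgfrb promoter and 1 past Sparc. KO cells gained 3 (5.0%, against 4.83%), near Pdgfrb and Twist2, and lost 8 (13.3%, against 6.01%), near Pdgfrb, Fbln1, Col1a1, Col1a2 and Col3a1. With 30000 kept peaks KO cells lost 1 region (3.03%, against 5.53% of all regions) and with 75000 they lost 2 (2.25%, against 6.12%). Line by line, the count of open regions was 3 higher on day 3 in WT70 and in WT72, 2 higher in CM59 and 6 higher in CM69. It was the same on both days in KO1 and in KO15, where 20 and 22 regions nevertheless differed in state, with no count over all regions beside these. The count of open regions also differed with XAV. It was 3 higher in KO1 and 4 higher in KO15 than in the same lines without XAV on day 3. The comparisons of KO day 3 with KO day 2 and of XAV-treated with untreated KO cells share the KO day 3 libraries, and those of KO, MUT and CHIR with WT on day 3 share the WT day 3 libraries.

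**Figure D3:**
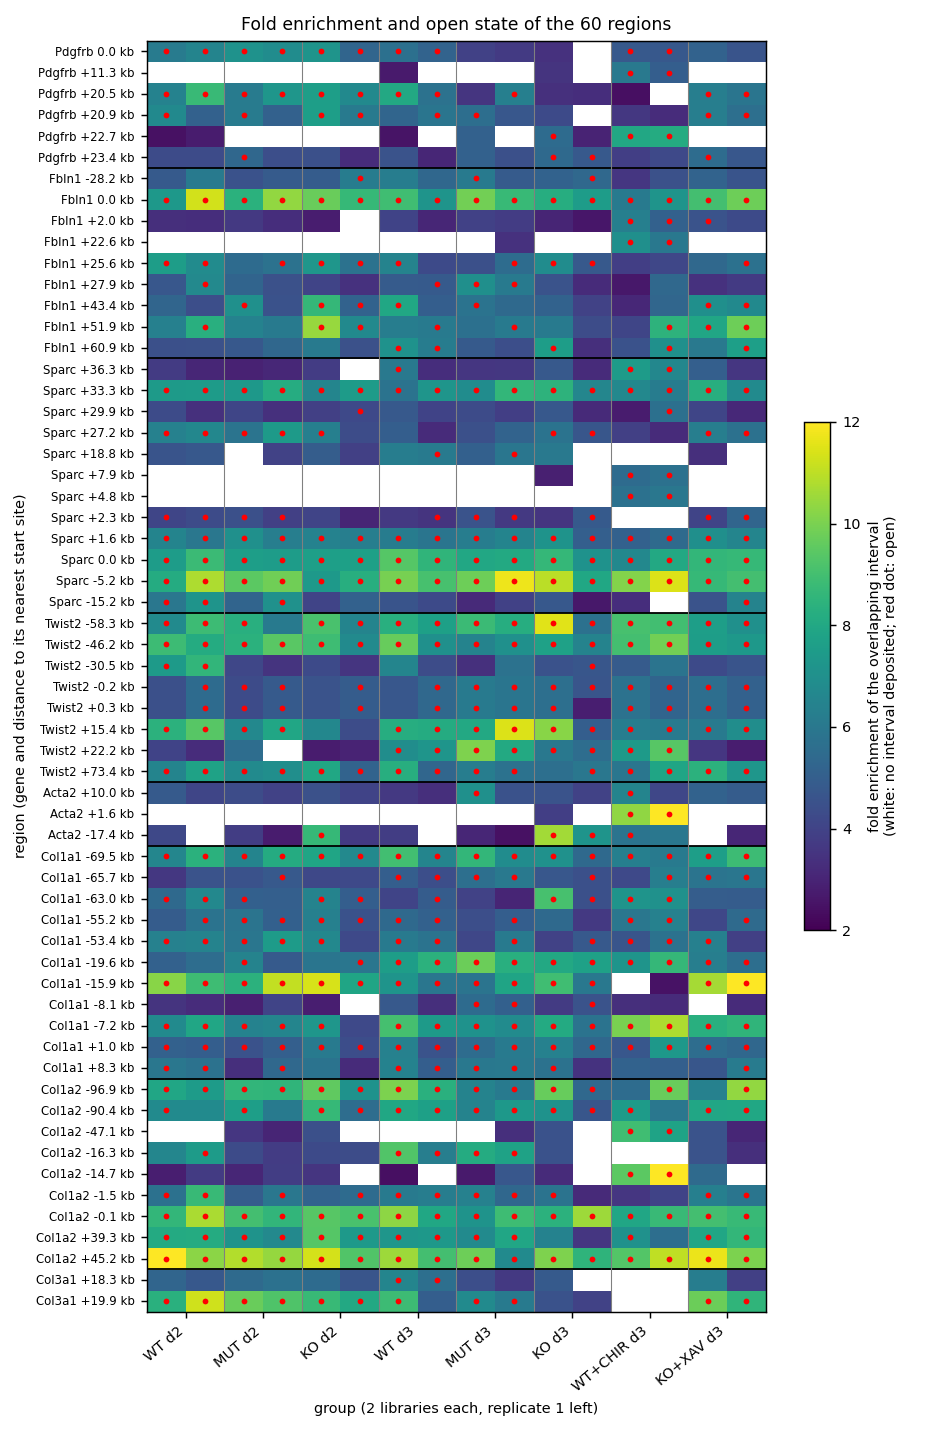
All 60 regions (rows, by gene and distance to the nearest TSS; 0.0 kb is a TSS) in all 16 libraries (columns, by group). Colour gives the fold enrichment of the overlapping peak, white marks no deposited peak and a red dot an open region. The white rows with 2 red dots under WT+CHIR are the regions of Pdgfrb, Fbln1, Sparc and Acta2 that were open with CHIR.

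Pdgfrb, the receptor, had all its regions at or inside the gene, and all 6 were lost or gained in some comparison. Fold enrichment, the ratio of reads at a summit to the local background as the peak caller reports it, is given for each library from here on, replicate 1 first. At the promoter (chr18:61044959-61045500) it was 6.17 and 6.53 in WT, 7.08 and 6.88 in MUT and 7.19 and 5.25 in KO cells on day 2, all open. On day 3 it was 5.69 and 5.17 in WT cells and 4.77 and 4.74 with CHIR, all open, but 3.93 and 3.70 in MUT cells, 3.42 and no peak in KO cells, and 5.13 and 4.62 in KO cells with XAV, all closed. The promoter was thus open in every library of day 2 and, on day 3, in the WT libraries with and without CHIR only. Between CHIR and XAV this split rests on rank and not on fold, as the closed XAV library at 5.13 lay above both open CHIR libraries. Neighbouring intron regions 20.5 and 20.9 kb downstream of a TSS share peaks in some libraries. At 20.5 kb the fold was 3.39 and 3.30 in KO cells on day 3, 2.42 and no peak with CHIR, and 6.28 and 5.87 in KO cells with XAV, against 8.03 and 5.76 in WT cells. At 20.9 kb it was 7.61 and 6.12 in KO cells on day 2, 4.26 and no peak on day 3, and 6.28 and 5.66 with XAV. Both regions were closed in KO day 3 cells and with CHIR and open in KO cells with XAV. Deeper in the gene, regions 11.3 and 22.7 kb downstream were gained with CHIR. The fold at 11.3 kb was 6.05 and 5.00 with CHIR, and 12 of the 14 other libraries had no peak there. The fold at 22.7 kb was 8.0 and 8.17 with CHIR and 5.49 in KO day 3 replicate 1, the other open library. The region 23.4 kb downstream was open in both KO libraries on day 3, at 5.41 and 4.79, and closed in both WT libraries, at 4.56 and 3.07. A closed MUT library of day 3 had 5.10, above the open KO library at 4.79, so open and closed rest on rank there.

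Fbln1, a calcium-binding glycoprotein of basement membranes and elastic fibres, had a promoter that was open in every library. Its fold at the TSS (chr15:85205854-85206192) ran from 6.09 (CHIR replicate 1) to 11.3 (WT day 2 replicate 2), with no group apart from the rest. In the first intron, 2.0 kb downstream, the fold was 6.32 and 5.10 with CHIR and 4.03 and 3.09 in WT cells on day 3. Further in, 22.6 kb downstream (chr15:85228454-85228837), it was 6.96 and 6.00 with CHIR, and 13 of the 14 other libraries had no peak. Of the other intron regions, those 43.4 and 51.9 kb downstream were open in both KO libraries on day 2 (8.65 and 5.13, then 10.5 and 6.73), closed in both on day 3 (5.15 and 3.96, then 6.12 and 4.32) and open with XAV (6.99 and 6.73, then 7.90 and 9.79). These differences are small next to the spread of a pair, since WT day 3 libraries had 7.96 and 4.98 at 43.4 kb. The regions 27.9 kb (MUT day 3, 6.99 and 6.07) and 60.9 kb downstream (WT day 3, 7.10 and 6.19) also appear among the calls, and all libraries had a peak at both.

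Sparc, a collagen-binding glycoprotein, had the most regions open in every library. Of its 12 regions, 5 were lost or gained in some comparison and 4 were open in all 16 libraries: the promoter, 1 in the first intron 1.6 kb downstream, 1 at 5.2 kb upstream and 1 at 33.3 kb downstream, past the gene. The fold at the promoter (chr11:55419740-55420078) ran from 6.67 (CHIR replicate 1) to 9.38 (WT day 3 replicate 1). With CHIR the introns differed. At 4.8 kb downstream (chr11:55414983-55415310) the fold was 5.73 and 5.97 with CHIR and none of the 14 other libraries had a peak. At 7.9 kb downstream (chr11:55411815-55412151) it was 5.50 and 5.71 with CHIR, and 13 of the 14 others had no peak. At 2.3 kb downstream the pattern was the reverse, with no peak in either CHIR library and a fold of 3.03 to 5.28 in the other 14. There KO cells on day 2 were called closed at 4.06 and 3.03, beside 4.08 and 4.28 in open WT libraries, so the call rests on rank and not on fold. The region 27.2 kb downstream was open at 5.80 and 4.69 in KO cells on day 3 and closed at 4.99 and 3.24 in WT and at 4.45 and 5.17 in MUT cells, having been open in 5 of 6 libraries on day 2. The region 15.2 kb upstream was open in both WT libraries on day 2, at 5.96 and 7.16, and closed at 4.61 and 4.23 on day 3.

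Twist2 had a GC-rich promoter that was open in most libraries, and a region 22.2 kb downstream of its TSS, in the intron, that divided day 3 from day 2. The 2 promoter regions, 0.2 kb upstream (chr1:91800919-91801572) and 0.3 kb downstream, shared 1 broad peak in most libraries and were open in 13 and 12, with folds of 4.28 to 6.13 at the upstream one. At 22.2 kb (chr1:91823431-91823832) the fold on day 2 was 4.02 and 3.27 in WT, 5.56 and no peak in MUT, and 2.77 and 2.99 in KO cells, all closed. On day 3 it was 6.92 and 7.22 in WT, 10.1 and 8.08 in MUT, 5.99 and 5.56 in KO cells and 7.47 and 9.40 with CHIR, all open, while KO cells with XAV stayed closed at 3.60 and 2.81. The 8 libraries of day 3 without XAV were all open and the other 8 closed, but in fold MUT day 2 replicate 1 reached the level of KO day 3 replicate 2. Across the genome 42 of 69099 regions (0.0608%) were open in just these 8 libraries. At 15.4 kb downstream both KO libraries on day 2 were closed at 6.62 and 4.31 and all 14 others were open. Some of the open libraries had a lower fold than 6.62, among them a KO library of day 3 at 4.97, so this call rests on rank. At 30.5 kb upstream the WT libraries of day 2 were open at 7.46 and 8.59, above the 3.40 to 6.54 of the other 14 libraries.

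Acta2, the contractile actin of myofibroblasts and smooth muscle, had no region covering an annotated TSS and had 1 strong CHIR region. It lies 1.6 kb downstream of the nearer of its annotated TSSs, at the end of the first intron next to the start codon exon (chr19:34252485-34252797), and the fold was 10.4 and 13.4 with CHIR. Of the other 14 libraries, 13 had no peak, and KO day 3 replicate 1 had a closed one at 3.86. A region 17.4 kb upstream was open in KO cells on day 3, at 10.6 and 7.19, against 3.81 and no peak in WT and no peak and 3.06 in KO cells with XAV. It was also open in KO day 2 replicate 1 (8.68) and in CHIR replicate 1 (5.85), with 5.98 in the closed replicate 2. The high values there were those of KO1 on both days, of KO15 on day 3 (3.71 on day 2) and of the CHIR pair.

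The chains of type I collagen each had a promoter region, within 3 kb of a TSS, that was open in all 16 libraries. For Col1a2 (chr6:4505134-4505742) the fold ran from 7.13 to 10.7. For Col1a1 the region lay in an intron, 1.0 kb downstream of the TSS (chr11:94936856-94937612), with folds from 4.37 to 7.34. No region covered the Col1a1 TSS itself. Upstream of Col1a2, a pair of neighbouring regions showed opposite patterns. At 16.3 kb upstream (chr6:4488368-4488707) the fold was 9.29 and 6.29 in WT and 8.15 and 7.77 in MUT cells on day 3, 4.51 and no peak in KO cells, 4.56 and 3.36 in KO cells with XAV, and no peak in either CHIR library. At 14.7 kb upstream (chr6:4489914-4490223) it was 9.50 and 12.8 with CHIR, 2.42 and no peak in WT, 2.72 and 4.73 in MUT, 3.22 and no peak in KO cells and 5.47 and no peak with XAV. On day 2 the region at 16.3 kb had 6.58 (closed) and 7.48 (open) in WT cells, within the range of WT cells on day 3, and 3.79 to 4.33 in MUT and KO cells. It was thus open in the WT and MUT pairs of day 3 and in 1 WT library of day 2, and the region at 14.7 kb with CHIR alone. Another region 47.1 kb upstream had 8.92 and 7.80 with CHIR and at most 4.56 elsewhere. Past the gene, 39.3 kb downstream, KO cells on day 3 were closed at 6.42 and 3.60, against 7.27 and 7.33 in WT and 7.90 and 8.61 in KO cells with XAV, and the region 1.5 kb upstream was closed with CHIR at 3.59 and 4.00.

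Col1a1 had most of its regions upstream. At 15.9 kb upstream (chr11:94920124-94920469) 14 libraries were open at 5.86 to 12.3, and the CHIR pair had no peak and 2.49. It was the only one of the 60 regions closed in both CHIR libraries and open in all others, a pattern of 1.87% of all regions. At 19.6 kb upstream all 10 libraries of day 3 were open at 5.62 to 9.74, and on day 2 only MUT replicate 1 (6.47) and KO replicate 2 (5.94) were. At 8.1 kb upstream MUT cells on day 3 had 5.48 and 5.07, above the 4.79 and 3.34 of WT cells and the 2.88 and 4.06 of MUT cells on day 2. The other called regions of Col1a1 overlapped in fold between the groups compared. At 55.2 kb upstream KO cells on day 3 had 5.42 and 3.68 and WT cells 5.41 and 5.10. At 63.0 kb upstream KO cells had 9.08 and 4.45 without XAV and 4.94 and 4.91 with it, at 65.7 kb WT cells had 4.97 and 4.40 on day 3 and 3.62 and 4.56 on day 2, and at 8.3 kb downstream the CHIR pair had 5.13 and 5.03 and the WT pair 6.42 and 4.98.

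Col3a1, the type III chain of soft connective tissue, had no promoter region among the 60, and both its regions lie past the gene's end. A region 2.6 kb downstream of its TSS was defined by XAV replicate 1 alone. At 19.9 kb from its nearest TSS (chr1:45359617-45360122) the fold on day 2 was 8.34 and 11.3 in WT, 9.73 and 9.26 in MUT and 8.72 and 8.04 in KO cells, all open. On day 3 it was 8.86 (open) and 5.00 (closed) in WT cells, 6.79 and 6.10 (open) in MUT cells, 4.51 and 3.96 (closed) in KO cells, no peak in either CHIR library, and 9.75 and 8.56 (open) in KO cells with XAV. The XAV pair sat with day 2, and the KO and CHIR pairs of day 3 were the lowest. At 18.3 kb (chr1:45358111-45358428) the WT pair of day 3 alone was open, at 6.55 and 5.67, but XAV replicate 1 had 6.25, so the groups overlap in fold.

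**Figure D4:**
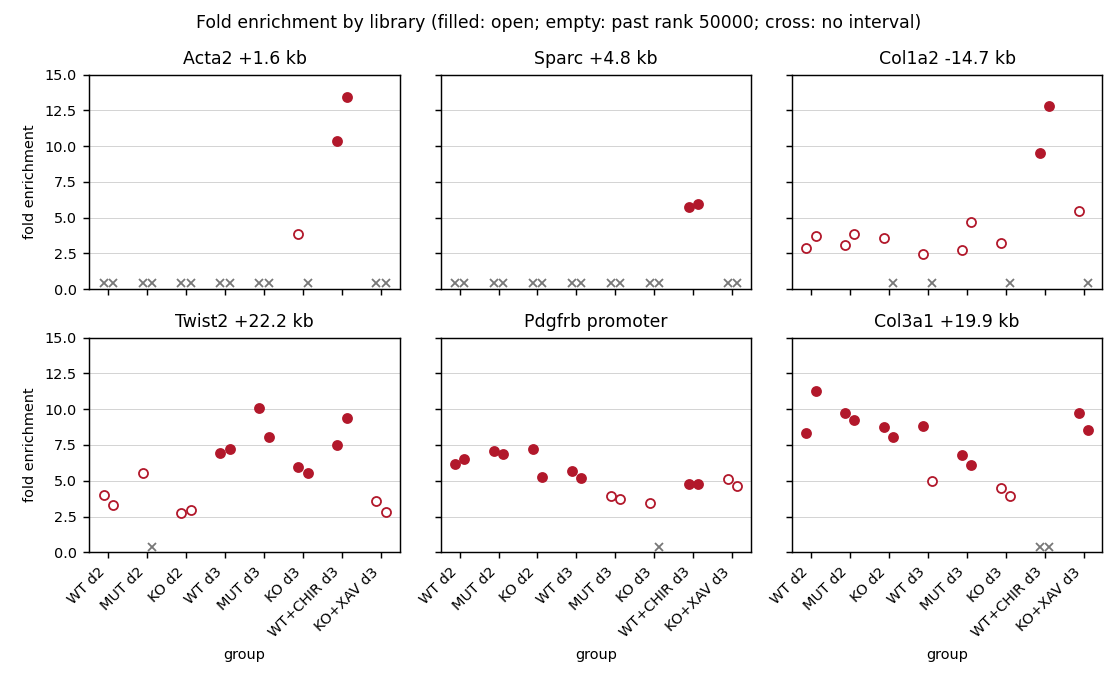
Fold enrichment (vertical axis) by group in 6 regions; filled points are open libraries, empty points peaks ranked past 50000 and crosses libraries without a peak (drawn near 0). The upper panels are open with CHIR alone, at 10.4 and 13.4 (Acta2), 5.73 and 5.97 (Sparc) and 9.50 and 12.8 (Col1a2). The lower panels show Twist2 open on day 3 except with XAV, the Pdgfrb promoter closed in MUT and KO cells of day 3, and Col3a1 lowest in KO cells and with CHIR.

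The sequences of the regions that carry these patterns are given from GRCm38.p6, which has mm10 coordinates, on the strand of the gene and 5′ to 3′. Capitals mark matches, on either strand, to any of 8 consensus sequences: AP-1 TGANTCA, TEAD GGAATG, TCF/LEF CTTTGAT, RUNX TGTGGT, E-box CAGCTG, SMAD GTCTAGAC, TATA box TATAAA and the CArG box. A CArG box can contain the letters of a TATA box, and the other motifs do not contain each other. The first 4 are regions open with CHIR alone, from Acta2 (chr19:34252577-34252776), Sparc (chr11:55411884-55412083 and chr11:55415047-55415246) and Col1a2 (chr6:4489969-4490168).
Acta2, 1.6 kb: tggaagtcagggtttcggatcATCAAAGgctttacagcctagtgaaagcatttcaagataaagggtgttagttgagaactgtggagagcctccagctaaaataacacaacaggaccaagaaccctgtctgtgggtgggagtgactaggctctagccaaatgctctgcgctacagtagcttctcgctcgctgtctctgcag
Sparc, 7.9 kb: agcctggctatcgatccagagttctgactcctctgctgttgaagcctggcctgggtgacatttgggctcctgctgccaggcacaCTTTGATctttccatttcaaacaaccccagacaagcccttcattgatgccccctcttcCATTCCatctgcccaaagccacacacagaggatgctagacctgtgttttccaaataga
Sparc, 4.8 kb: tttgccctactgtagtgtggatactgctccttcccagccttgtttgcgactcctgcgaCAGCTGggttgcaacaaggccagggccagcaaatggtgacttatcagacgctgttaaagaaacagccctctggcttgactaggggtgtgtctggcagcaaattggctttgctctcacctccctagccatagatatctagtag
Col1a2, 14.7 kb upstream: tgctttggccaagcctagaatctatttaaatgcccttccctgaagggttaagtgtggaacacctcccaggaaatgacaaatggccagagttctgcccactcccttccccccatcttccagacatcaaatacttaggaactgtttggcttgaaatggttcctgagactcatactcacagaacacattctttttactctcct

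The Acta2 and Sparc 7.9 kb stretches each hold a TCF/LEF letter run, the latter also TEAD, and the Sparc 4.8 kb stretch holds an E-box. Over windows of 300 bases at the midpoint, TCF/LEF was found in 4 of the 9 regions gained with CHIR (44.4%), in Pdgfrb, Fbln1, Sparc and Acta2, against 13.6% of all 6869 regions gained with CHIR and 5.00% of all 80585 regions. TCF/LEF was 1 of 8 motifs searched. In the same 9 regions the E-box was found in 3 (33.3%, against 33.3% of all regions gained with CHIR) and RUNX in 2 (22.2%, against 22.9%). TEAD was found in 1 (11.1%, against 16.7%), the TATA box in 1 (11.1%, against 6.46%) and AP-1 in none (against 10.1%). Of the 6 regions lost with CHIR none held TCF/LEF, against 3.13% of all 5748, and 6 regions are too few to show a lower share. A match is a run of letters and not a bound site.

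Stretches from 3 further regions described above come from Twist2 (chr1:91823532-91823731), Col1a2 (chr6:4488438-4488637) and Col3a1 (chr1:45359770-45359969).
Twist2, 22.2 kb: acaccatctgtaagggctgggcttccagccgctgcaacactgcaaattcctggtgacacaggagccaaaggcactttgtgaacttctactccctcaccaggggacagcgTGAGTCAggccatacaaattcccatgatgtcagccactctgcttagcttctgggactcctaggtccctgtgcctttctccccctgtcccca
Col1a2, 16.3 kb upstream: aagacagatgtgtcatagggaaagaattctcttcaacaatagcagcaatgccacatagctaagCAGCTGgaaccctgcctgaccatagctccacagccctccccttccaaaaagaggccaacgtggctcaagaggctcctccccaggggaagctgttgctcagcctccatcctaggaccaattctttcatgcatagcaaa
Col3a1, 19.9 kb: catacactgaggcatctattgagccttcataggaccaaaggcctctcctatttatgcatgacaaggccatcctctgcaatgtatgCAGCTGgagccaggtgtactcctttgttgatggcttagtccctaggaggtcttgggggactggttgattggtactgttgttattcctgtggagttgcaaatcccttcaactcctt

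The Twist2 stretch holds 1 AP-1 match and the other stretches 1 E-box each. Across the 60 regions AP-1 was found in 11 (18.3%, against 11.8% of all regions), TEAD in 15 (25.0%, against 18.4%), RUNX in 14 (23.3%, against 19.0%), the E-box in 13 (21.7%, against 24.3%), TCF/LEF in 6 (10.0%, against 5.00%), the TATA box in 7 (11.7%, against 7.26%), the CArG box in 1 (1.67%, against 1.43%) and SMAD in none (against 0.225%). The mean GC content was 53.5% ± 6.79 (SD over the 60 regions) and 55.0% ± 8.29 over all regions.

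The promoters differ in base content beside their open state. The RefSeq promoter windows, from 250 bases before to 50 after the start, were found for 6 of the 8 genes. Those of Col1a2 (61.0% GC, 13 CpG) and Sparc (55.3% GC, 4 CpG) belong to genes open in all 16 libraries, and that of Acta2 had 54.7% GC and 6 CpG. The stretches before the start are shown for Fbln1, open in 16 libraries (chr15:85205749-85205948), Twist2, open in 13 (chr1:91801261-91801460), and Col3a1, which had no promoter region (chr1:45311338-45311537).
Fbln1 promoter: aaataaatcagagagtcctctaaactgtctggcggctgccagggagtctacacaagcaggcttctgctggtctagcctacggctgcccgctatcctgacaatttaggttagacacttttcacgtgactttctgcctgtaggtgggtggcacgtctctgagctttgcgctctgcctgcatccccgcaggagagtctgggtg
Twist2 promoter: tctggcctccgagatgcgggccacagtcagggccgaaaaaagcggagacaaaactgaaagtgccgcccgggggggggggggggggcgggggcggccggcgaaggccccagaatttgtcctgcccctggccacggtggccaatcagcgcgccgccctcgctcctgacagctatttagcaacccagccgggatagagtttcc
Col3a1 promoter: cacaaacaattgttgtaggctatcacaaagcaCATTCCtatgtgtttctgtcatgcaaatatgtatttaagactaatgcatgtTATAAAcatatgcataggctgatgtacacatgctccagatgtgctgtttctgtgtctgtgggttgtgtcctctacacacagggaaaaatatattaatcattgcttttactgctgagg

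GC content was 54.5% in the Fbln1, 67.5% in the Twist2 and 37.5% in the Col3a1 stretch, and the Col3a1 window held no CpG. The Col3a1 stretch holds a TATA box and a TEAD match. A TATA box was found in 1 of the 7 windows of the 6 genes and in 13.6% of all 32851 windows.

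Other fibroblast genes, 24 in all with 113 regions, were read in the same way. Their open share was 65.9% ± 0.626 in WT and 63.3% ± 0.626 in KO cells on day 3, and KO cells had lost 6 (5.31%) and gained 4 (3.54%) of these regions, against 10.0% and 5.0% of the 60. With CHIR 15 (13.3%) were lost and 17 (15.0%) gained. For 10 other contractile genes with 41 regions, 4 (9.76%) were gained with CHIR and 2 (4.88%) lost. Parietal and visceral endoderm genes, which share high Sparc, had an open share of 60.2% ± 3.93 in WT and 48.1% ± 0.0 in KO cells on day 3, over 54 regions. The 58 regions of 8 neural progenitor genes had 78.4% ± 1.22 in WT and 67.2% ± 4.88 in KO cells on day 3, 78.4% ± 3.66 in KO cells with XAV and 66.4% ± 1.22 with CHIR, where 9 were lost. The 49 regions of 10 housekeeping genes had 73.5% ± 2.89 in WT and 83.7% ± 2.89 in KO cells. The part of these differences in the values of the 8 genes was not tested. These lists were chosen with earlier results known, and Pdgfra stands in both the fibroblast and the mesoderm list.

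Of 5250 genes with at least 5 regions, those whose open share ran most like that of the 8 genes together over the 16 libraries were Ssc5d (Pearson r = 0.854, 5 regions), Tgfbi (0.834, 8 regions), Slc38a10 (0.833, 9 regions), Stum (0.824, 12 regions) and Ngfr (0.820, 7 regions). Tgfbi encodes a secreted matrix protein. The points share their libraries, whose lists differ in length, and the 5 genes are the extreme of 5250, so r describes the choice and no more.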

How the data were processed

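Omni-ATAC-seq was measured in 16 libraries, 2 per group, grouped by genotype, day and treatment as the labels give them. The authors ran the ENCODE ATAC-seq pipeline on mm10, and their processing notes name DiffBind 3.0.15, HOMER 2 and deepTools 3.4.3. Versions of the aligner and peak caller are not named there. The deposited peak lists, 1 per library, give per peak a fold enrichment (a ratio to local background), made by the authors' peak caller. The deposited −log10 p and −log10 q values come from the same caller, with 2 as the lowest −log10 p listed. Lists of differential regions from the authors' own comparison were not used. Read counts were not analysed here, so depth is unknown.

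Per library the 50000 unique intervals with the highest −log10 p were kept, so that lists of unequal length weigh alike. Kept summits, extended by 150 bases on either side, were merged into regions, and regions held by at least 2 libraries were assigned to the nearest protein-coding TSS within 100 kb. A closed state therefore means a rank past 50000 or no peak. The 8 genes, the gene lists and the motifs were chosen with earlier results of these data known. Described one by one were every promoter region and every region lost or gained in at least 1 comparison, and the 5 genes most like the 8. No test was run. The region building was tested on simulated data. Alternatives were 30000 or 75000 intervals, a −log10 q of at least 2, a TSS within 50 kb, a summit inside the region, regions of at least 1 library, and leaving out each replicate. Python 3.11.15, pandas 2.3.3, numpy 2.4.6 and matplotlib 3.10.9 were used.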

Additional observations from a re-analysis of the deposited data

Results flagged for a closer look

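The count of open Fbln1 regions went in opposite directions from day 2 to day 3 in MUT and KO lines. It was 2 higher on day 3 in both CM59 and CM69, with a mean of 2.0, while the difference of day 3 minus day 2 was −1 in KO1 and −2 in KO15, with a mean of −1.5. The means differ by 3.5 regions, of 9 in all. Every MUT line went one way and every KO line the other, and the difference was not tested. Over all gene-assigned regions the open share differed by −0.695 points in MUT and −1.32 points in KO cells between these days. The Fbln1 regions lost in KO cells lay 43.4 and 51.9 kb downstream, and that gained in MUT cells 27.9 kb downstream. These calls did not recur with 30000 or 75000 intervals or with a −log10 q of at least 2.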

How the results depend on the processing

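Of the differences in open share, in percentage points, 69 values under alternatives stayed within the spread between replicates without turning from one sign to the other (some were 0.0), 11 moved by more than that spread and 10 turned in sign; the cause was not tested. With 30000 intervals the difference was 7.58 for KO against WT on day 3, 1.52 for MUT against WT on day 3, 24.2 for CHIR, −10.6 for XAV, 9.09 for MUT from day 2 to day 3 and 18.2 for KO from day 2 to day 3. With 75000 it was 1.12 for MUT against WT on day 3, 7.87 for CHIR, 1.69 for XAV and 3.37 for KO between days. With a −log10 q of at least 2 it was −5.22 for KO and 1.12 for MUT against WT on day 3, 8.21 for CHIR, and, between days, −10.4 for WT, −2.61 for MUT and −9.33 for KO. With a TSS within 50 kb it was −6.12 for KO and 3.06 for MUT against WT on day 3 and 3.06 for KO between days. Leaving out 1 replicate gave −13.3 to −6.67 for KO against WT on day 3, −5.0 to 1.67 for MUT (1.67 without WT day 3 replicate 2), −2.50 to 4.17 for CHIR (−2.50 without WT day 3 replicate 1), 3.33 to 8.33 for XAV, −8.33 to −1.67 for KO and −6.67 to 0.0 for MUT against WT on day 2, and, between days, 1.67 to 8.33 for WT, 5.0 to 8.33 for MUT and −1.67 to 1.67 for KO. Regions numbered 33 with 30000 intervals, 89 with 75000 and 134 with the −log10 q limit. Losses in KO cells on day 3 then numbered 0, 5 and 6, gains with CHIR 9, 18 and 22, losses with CHIR 1, 9 and 13, gains with XAV 0, 5 and 5, and losses in KO cells between days 1, 2 and 5, against 6, 9, 6, 6 and 8 as reported. The shares lost in KO cells on day 3 were then 0.0%, 5.62% and 4.48%, where 3.7%, 4.2% and 3.34% of all regions were. Gains with CHIR were 27.3%, 20.2% and 16.4%, against 9.11%, 10.0% and 8.44%. Losses with CHIR were 3.03%, 10.1% and 9.7%, against 8.2%, 8.2% and 6.11%. Gains with XAV were 0.0%, 5.62% and 3.73%, against 4.15%, 4.63% and 5.82%. Losses in KO cells between days were 3.03%, 2.25% and 3.73%, below the 5.53%, 6.12% and 7.13% of all regions. Regions were rebuilt under each setting, so like counts need not be the same regions. Of the reported regions, 0, 2 and 0 losses in KO cells on day 3 recurred, and 1, 1 and 0 on day 2. Gains with XAV recurred at 0, 0 and 0 regions and gains with CHIR at 5, 8 and 8. In the same order of settings, gains numbered 2, 2 and 1 for KO against WT on day 3 (3 as reported), losses 1, 1 and 3 and gains 1, 2 and 3 for MUT against WT on day 3 (3 and 1), and losses 3, 4 and 1 with XAV (3). These KO gains were 6.06%, 2.25% and 0.746%, against 3.26%, 3.4% and 1.79% of all regions. The MUT losses were 3.03%, 1.12% and 2.24%, against 1.76%, 1.87% and 1.65%. The MUT gains were 3.03%, 2.25% and 2.24%, against 1.66%, 1.77% and 1.74%. Losses with XAV were 9.09%, 4.49% and 0.746%, against 3.54%, 3.64% and 1.42%. On day 2, KO losses were 2, 3 and 5 (5) and gains 0, 2 and 0 (1), and MUT losses 1, 2 and 6 (1) and gains 0, 1 and 1 (0). These KO losses were 6.06%, 3.37% and 3.73%, against 2.16%, 2.21% and 1.67% of all regions. The KO gains were 0.0%, 2.25% and 0.0%, against 1.9%, 1.91% and 1.52%. The MUT losses were 3.03%, 2.25% and 4.48%, against 1.71%, 1.69% and 2.4%. The MUT gains were 0.0%, 1.12% and 0.746%, against 1.71%, 1.66% and 1.31%. Between days, WT losses were 1, 2 and 7 (3) and gains 1, 7 and 2 (5), and MUT losses 1, 3 and 7 (2). These WT losses were 3.03%, 2.25% and 5.22%, against 3.78%, 3.94% and 7.05% of all regions. The WT gains were 3.03%, 7.87% and 1.49%, against 3.6%, 3.39% and 1.35%. The MUT losses were 3.03%, 3.37% and 5.22%, against 4.0%, 4.33% and 6.33%. Without 1 replicate, which leaves fewer libraries to match, KO losses on day 3 were 9 to 10, gains with CHIR 10 to 12 and gains with XAV 7 to 9. Alternatives for single regions were chosen after seeing the data. Of the 69 calls of single regions, 10, 24 and 12 recurred under these 3 settings and 67 with a summit inside the region. The 4 calls that recurred in all 4 were gains with CHIR, in Pdgfrb (22.7 kb), Sparc (4.8 kb), Acta2 (1.6 kb) and Col1a2 (14.7 kb upstream). No paired analysis was possible because no result comes from a test to which a block could be added; where the same lines recur, between days and with XAV, their differences line by line are in the report.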
